A study of Mus musculus with 8 samples.

Results

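To examine what inhibition of PI3K p110α changes in adipocytes that are loaded with a saturated fatty acid, gene expression was compared between 3T3-L1 adipocytes given palmitate together with A66 and adipocytes given palmitate alone. The 4 libraries were taken by the treatment in their labels, 2 with palmitate and 2 with palmitate plus A66, out of 8 in the series. 3T3-L1 is an established mouse pre-adipocyte line, and all cells were differentiated with insulin, dexamethasone, isobutylmethylxanthine and rosiglitazone. On day 8 they received palmitate (0.5 mM, bound to BSA), the p110α-selective inhibitor A66 (2 μM), both or nothing for 24 h. The labels describe the comparison cells as untreated and name no BSA or DMSO control, whereas the methods of the study name a DMSO vehicle and a lower dose of A66 for this sequencing. The 4 untreated and A66-only libraries entered the fit for its estimate of spread and were used where the A66 change without palmitate is given beside the change with it. The methods call the replicates biological repeats, but neither they nor the labels say that these were separate cultures, so p-values measure only the spread between these libraries. A66 acts on a protein, so no transcript checks the labels directly, and every direction below rests on them. For A66 in these cells the paper reports lower ribosomal protein genes and higher mitochondrial genes, Cpm and Aldoa. By the labels, A66 without palmitate raised 34 of 82 cytosolic ribosomal protein genes (adjusted p under 0.05, edgeR) and lowered 0. Cpm fell (log2 fold change -0.98), and Aldoa, at -0.11, did not pass. Of 79 nuclear oxidative phosphorylation genes, 4 rose and 0 fell, where 0.795% of all genes rose and 0.638% fell. The reason for the opposite directions of the ribosomal protein genes and Cpm was not tested.

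p110α, encoded by Pik3ca, is the catalytic PI3K subunit that insulin uses most in adipocytes, and p85α, encoded by Pik3r1, is its main regulatory partner. Insulin signalling through this enzyme favours glucose uptake and lipid storage and holds back FOXO transcription factors, whereas palmitate is known to load the cell with saturated acyl-CoA and to provoke inflammatory and stress responses. Interferon-stimulated genes encode sensors and effectors of antiviral defence, and many are transcribed through a complex that contains STAT2 and IRF9.

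The 4 palmitate-treated libraries held 48734754 to 57529803 counts, and all 8 held 42247091 to 57529803. A floor of 3 counts equals 0.0521 to 0.0710 CPM (counts scaled to library size, with TMM factors) and covers counting error only. Markers of the labelled cell type were high, with Adipoq (adiponectin) at 2068 and 2246 CPM with palmitate and 2049 and 2137 CPM with palmitate plus A66. Fabp4, the adipocyte fatty acid binding protein, was at 2753 and 2856 CPM, then 2639 and 3054 CPM with A66. Neither gene was called (log2 fold changes of -0.04 and 0.02). Of 13 macrophage markers 6, among them Adgre1 and Ptprc, had no count in any of the 4 libraries, and the 5 that could be tested summed to 15.5 and 16.8 CPM with palmitate and 18.1 and 19.4 CPM with A66. Of these 5, 0 were called and 4 had a log2 fold change above 0. The other, Lyz2, was lower, with 203 and 189 counts with palmitate and 104 and 141 with A66. Of 9 endothelial markers 2 had no count and 4 were tested, with sums of 1.75 and 1.66 CPM, then 2.08 and 1.61 CPM. Ribosomal RNAs, looked at after their values were seen, moved with A66 with and without palmitate. The mitochondrial ribosomal RNA mt-Rnr1 stood at 4256 and 5168 CPM with palmitate and 6078 and 7509 CPM with A66 (log2 fold change 0.53, adjusted p = 0.0013), and without palmitate at 3776 and 3881 CPM, then 5406 and 6684 CPM. mt-Rnr2 (0.47, adjusted p = 0.00817) and Gm42418, which overlaps the repeat of nuclear ribosomal RNA (0.43, adjusted p = 0.0107), rose as well. Of 7 tested genes for other RNAs without a poly(A) tail, histone genes among them, 0 were called, but 6 had a value above 0, 5 had both A66 libraries above both palmitate libraries, and the median was 0.24. Of all genes tested, 44.3% had groups that did not overlap in either direction. Without palmitate 2 of the 7 rose, against 0.795% of all genes, and the median was 0.54. The part of these RNAs in the results below was not tested.

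Of 14587 genes tested, 410 (2.81%) differed between palmitate plus A66 and palmitate by the quasi-likelihood test of edgeR, where a gene was called if its Benjamini-Hochberg adjusted p was under 0.05. Expression of 142 genes (0.973%) rose and that of 268 genes (1.84%) fell. Most changes were small, with a median size of 0.26 on the log2 scale among the called genes, and 46 of them, 11 higher and 35 lower, reached 1.5-fold. With 2 libraries a group, all 410 had groups that did not overlap, as did 6467 (44.3%) of all genes tested. The number of calls rested on single libraries. It was 147 without palmitate replicate 2, 191 without palmitate plus A66 replicate 1 and 211 without palmitate plus A66 replicate 2, whereas leaving out palmitate replicate 1 gave 426. Scaling by library size alone gave 107 higher and 350 lower genes, or 23.4% higher among the calls against 34.6% with TMM.

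**Figure D1:**
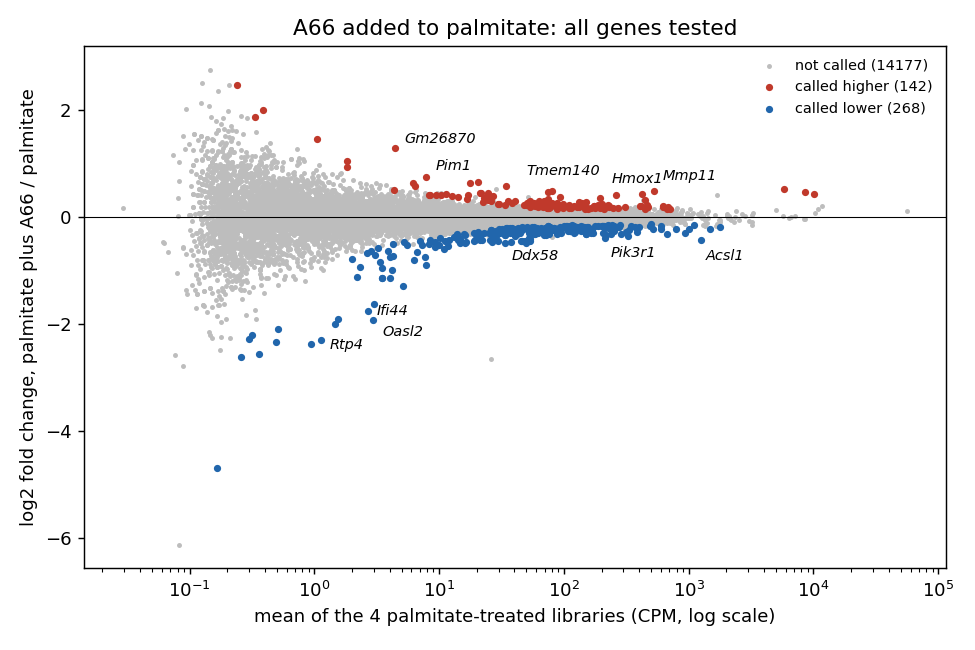
Log2 fold change of palmitate plus A66 over palmitate (vertical axis) against the mean of the 4 palmitate-treated libraries in CPM (horizontal axis, log scale), with 1 point per gene tested. The 142 genes called higher are red, the 268 called lower are blue and the 14177 not called are grey, and the larger called falls lie among genes of low expression such as Oasl2, Ifi44 and Rtp4.

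Among the genes that rose, Tmem140, which encodes a transmembrane protein, gave the smallest p. It was at 61.3 and 62.7 CPM with palmitate and at 83.2 and 88.7 CPM with palmitate plus A66, a log2 fold change of 0.47 (SE 0.05, adjusted p = 1.32e-05). Mmp11, a stromal metalloproteinase, went from 407 and 464 CPM to 594 and 624 CPM (0.48, SE 0.05, adjusted p = 1.65e-05). Both genes were separated by more than the gap between replicates. Osmr, the receptor subunit for oncostatin M, was at 80.3 and 81.8 CPM with palmitate and at 107 and 102 CPM with A66 (0.37, SE 0.04, adjusted p = 6.13e-05). Nr1d2 and Hmox1 complete the 5 smallest p-values among rises and are described with their groups. All 5 were still called when any 1 of the 8 libraries was left out.

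Among called genes with a mean of at least 1 CPM, Prtn3 and Gm26870 had the largest rises. Prtn3 (proteinase 3) had 0.398 and 0.727 CPM with palmitate and 1.30 and 1.75 CPM with A66, a log2 fold change of 1.44 (SE 0.33, adjusted p = 0.0142), and its call ended without palmitate replicate 1 or without palmitate plus A66 replicate 2. Gm26870, an unnamed gene model, stood at 1.57 and 3.64 CPM, then 6.04 and 6.54 CPM (1.28, SE 0.23, adjusted p = 0.00281), and was not called by DESeq2. The others were Fgd3, Ankrd1, Pim1, Dbp, Ampd3, Fgl1, Ier3 and Ccn1, between 1.04 for Fgd3 and 0.57 for Ccn1. Calls ended without palmitate plus A66 replicate 1 for Fgd3, Ampd3 and Ier3, without palmitate replicate 2 for Fgd3, Dbp and Ier3, without palmitate replicate 1 for Fgl1 and Ier3, and without palmitate plus A66 replicate 2 for Fgl1. Pim1 encodes a serine/threonine kinase that cytokine receptors induce, and its level went from 6.28 and 5.50 CPM to 10.7 and 9.05 CPM (0.74, SE 0.12, adjusted p = 0.00102). Ccn1 and Ankrd1 are responsive to serum and to mechanical load. Ccn1 was at 28.3 and 27.0 CPM with palmitate and at 43.4 and 38.6 CPM with A66, and remained called without any single library, whereas Ankrd1 lost its call without palmitate replicate 1, palmitate replicate 2 or palmitate plus A66 replicate 1.

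Among the genes that fell, Acsl1 and Pik3r1 gave the smallest p-values. Acsl1 (mouse chromosome 8, 46471037 to 46536051, GRCm38) encodes the acyl-CoA synthetase that activates long-chain fatty acids in adipocytes. Its level was 1385 and 1483 CPM with palmitate and 1036 and 1098 CPM with palmitate plus A66, a log2 fold change of -0.43 (SE 0.05, adjusted p = 1.97e-05). Pik3r1 (chromosome 13, 101680563 to 101768217) had 245 and 237 CPM with palmitate and 181 and 187 CPM with A66 (-0.39, SE 0.04, adjusted p = 1.97e-05). For both genes the 2 libraries with palmitate plus A66 lay below the 2 with palmitate. Groups did not overlap in any of the 410 called genes. Olfml2b, a secreted matrix protein, was at 58.3 and 65.9 CPM, then 47.3 and 43.8 CPM (-0.45, SE 0.06), and Cd248 (endosialin), a surface protein of stromal cells, at 43.6 and 43.3 CPM, then 31.5 and 31.6 CPM (-0.46, SE 0.06). The fifth, Oasl2, is on the list of interferon-stimulated genes, as are 8 of the 10 largest falls among called genes with a mean of at least 1 CPM, namely Rtp4, Usp18, Oasl2, Mx2, Ifi44, Ifit1, Dhx58 and Gbp3. Iigp1, an interferon-inducible GTPase that is not on the list, fell from 5.0 and 4.57 CPM to 2.45 and 1.89 CPM (-1.14, SE 0.17, adjusted p = 0.000536). The last is Agtr2, the type 2 angiotensin receptor, at 9.44 and 5.20 CPM with palmitate and 2.64 and 3.39 CPM with A66 (-1.28, SE 0.23, adjusted p = 0.00241), which was not called by DESeq2 or without palmitate replicate 1.

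Of all the lists, interferon-stimulated genes had the largest share of calls. Of 36 members tested, 25 (69.4%) fell with A66 and 0 rose, against 1.84% of all genes called lower, and 30 of the 36 had both A66 libraries below both palmitate libraries, where 44.3% of all genes had groups that did not overlap in either direction. The median log2 fold change of the list was -0.53, against -0.000794 for all genes tested. Of 31 members whose mean reached 1 CPM, 23 fell and the median was -0.48. The list was written with earlier results of these data known, so its count describes these libraries and is not independent evidence of a direction. The number that fell was 15 without palmitate replicate 2, 17 without either palmitate plus A66 library and 20 with DESeq2. The ribosomal RNAs rose and the tested macrophage markers summed higher in the same A66 libraries, as given above, and their part in these falls was not tested.

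Promoter windows of 300 bases (250 before to 50 after the transcription start, RefSeq, GRCm38.p6) were searched for the core of the interferon-stimulated response element, GAAANNGAAA, on both strands, because many genes of this kind are known to carry it. The search covered 25 of the 36 tested members, and no window was matched for the other 11, among them Usp18, Dhx58, Mx2 and Rtp4. The element was found in 3.44% of all 32851 windows, in 9 of 19 windows (47.4%) of members that fell and in 5 of 13 windows (38.5%) of members that were not called. The 4 windows below are those of the called members with the smallest p that hold a match. They are printed 5′ to 3′ on the strand of the gene, with matches in either orientation in capitals.
Ddx58, chr4:40239776-40240075, minus strand: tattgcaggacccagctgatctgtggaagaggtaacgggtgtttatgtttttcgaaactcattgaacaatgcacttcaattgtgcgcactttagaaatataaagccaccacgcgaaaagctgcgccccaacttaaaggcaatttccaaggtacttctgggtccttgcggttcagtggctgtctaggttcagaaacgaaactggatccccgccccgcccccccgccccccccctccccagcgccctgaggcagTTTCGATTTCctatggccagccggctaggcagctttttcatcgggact
Ifit1, chr19:34640639-34640938, plus strand: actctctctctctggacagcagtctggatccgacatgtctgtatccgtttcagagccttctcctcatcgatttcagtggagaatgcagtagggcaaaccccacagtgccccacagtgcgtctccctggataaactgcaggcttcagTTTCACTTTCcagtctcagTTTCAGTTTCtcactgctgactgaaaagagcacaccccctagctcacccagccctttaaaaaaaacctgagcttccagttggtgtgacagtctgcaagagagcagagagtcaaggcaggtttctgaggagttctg
Ifit3, chr19:34583279-34583578, plus strand: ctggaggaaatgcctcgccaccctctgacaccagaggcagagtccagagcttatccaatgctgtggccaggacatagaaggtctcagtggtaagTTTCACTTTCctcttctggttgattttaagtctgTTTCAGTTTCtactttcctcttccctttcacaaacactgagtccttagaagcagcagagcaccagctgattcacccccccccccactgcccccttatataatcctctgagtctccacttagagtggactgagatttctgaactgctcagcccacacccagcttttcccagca
Isg15, chr4:156200769-156201068, minus strand: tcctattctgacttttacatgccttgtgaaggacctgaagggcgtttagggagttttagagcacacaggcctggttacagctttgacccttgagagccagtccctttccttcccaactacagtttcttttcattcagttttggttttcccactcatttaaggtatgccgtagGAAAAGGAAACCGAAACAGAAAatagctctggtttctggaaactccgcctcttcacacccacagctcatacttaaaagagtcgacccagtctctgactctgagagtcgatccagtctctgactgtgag
Ifit1 and Ifit3 each hold 2 separate matches, the outermost 104 and 156 bases before the start, Isg15 holds 3 that overlap, and the single match of Ddx58 begins just after the annotated start. A match is a description of the letters and not a measured binding site.

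Of the genes for RIG-I-like RNA sensors, Ddx58 and Dhx58 fell. Ddx58 (RIG-I) was at 37.1 and 41.5 CPM with palmitate and at 28.6 and 27.1 CPM with A66, a log2 fold change of -0.50 (SE 0.07, adjusted p = 0.000261). Dhx58 (LGP2) went from 5.48 and 5.65 CPM to 2.66 and 2.39 CPM (-1.14, SE 0.17, adjusted p = 0.000441). The groups did not overlap for either gene, as for all 410 called genes. The third sensor of the family, Ifih1 (MDA5), was at 5.03 and 4.81 CPM, then 3.81 and 4.26 CPM, and was not called (-0.29, adjusted p = 0.361).

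Several of the called members encode antiviral effectors. Oasl2, a member of the oligoadenylate synthetase family (chromosome 5, 114896936 to 114912234), had 3.77 and 5.56 CPM with palmitate and 1.40 and 1.06 CPM with A66 (-1.92, SE 0.23, adjusted p = 6.13e-05). Ifi44 had 4.06 and 4.23 CPM, then 1.05 and 1.39 CPM (-1.76, SE 0.23, adjusted p = 0.000169). Ifit1, which binds foreign RNA by its 5′ end, had 4.32 and 4.75 CPM, then 1.85 and 1.08 CPM (-1.63, SE 0.23, adjusted p = 0.000267). In all of these the lowest palmitate library was above the highest A66 library, and no called gene had groups that overlapped. Rtp4 was at 1.59 and 2.14 CPM, then 0.206 and 0.542 CPM (-2.30, SE 0.35, adjusted p = 0.000514). The GTPase Mx2 was at 2.25 and 2.63 CPM, then 0.618 and 0.683 CPM (-1.90, SE 0.31). The guanylate-binding protein gene Gbp3 was at 4.55 and 4.96 CPM, then 1.88 and 2.45 CPM (-1.13). Oasl2, Ifi44, Ifit1 and Rtp4 were, with Ddx60, an interferon-inducible helicase outside the list that was named after its values were seen, the 5 genes called when a change of over 1.5-fold was required. Levels of Oas2 and Mx1 were under 1 CPM in every library, and their fitted changes were -2.33 and -2.20. Rsad2 and Cmpk2, with 2 or 3 counts in each A66 library, were not called.

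Some of the called members carry or restrain the interferon signal. Usp18, the protease that removes ISG15 from proteins and damps the receptor, had 2.32 and 2.35 CPM with palmitate and 0.804 and 0.361 CPM with A66 (-2.0, SE 0.32, adjusted p = 0.000918). Isg15 itself was at 4.32 and 4.94 CPM, then 2.33 and 2.45 CPM (-0.95, SE 0.17). Of the transcription factors, Irf7 (-0.65), Irf9 (-0.48) and Stat2 (-0.30) fell, with Stat2 at 41.2 and 45.1 CPM, then 36.0 and 33.9 CPM. Irf1 was at 38.7 and 40.5 CPM, then 39.1 and 41.7 CPM, so its groups overlapped (0.03, 95% interval -0.10 to 0.16). The receptor gene Ifnar1, no member of the list, was at 113 and 113 CPM, then 113 and 110 CPM, and was not called. Further called members were Ifit3, Xaf1, Ifi27, Herc6, Lgals3bp, Trim30a, Parp14, Ifi35 and Ifit3b, between -0.98 for Xaf1 and -0.31 for Ifi27. Ifit3 and Ifit3b are close copies, and reads may have been split between them. The members not called were Rsad2, Cmpk2, Ifih1, Irf1, Bst2, Ifi204, Gbp7, Ifit2, Gbp2, Zbp1 and Isg20, of which Ifit2 had the highest value (0.13, 95% interval -0.05 to 0.31).

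**Figure D2:**
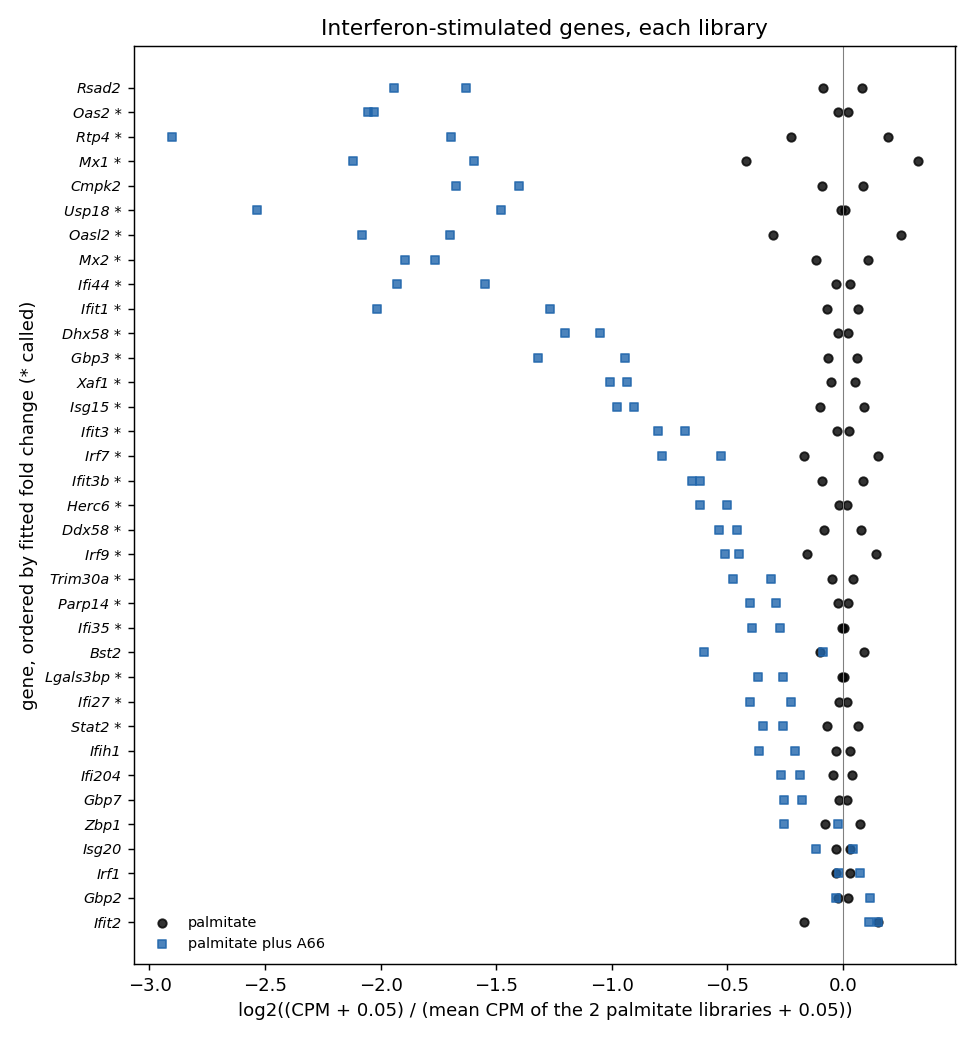
Values of 35 of the 36 interferon-stimulated genes tested (vertical axis, ordered by fitted change, called genes starred), each library given as log2 of its CPM plus 0.05 over the mean of the 2 palmitate libraries plus 0.05 (horizontal axis). Black circles are the 2 palmitate libraries and blue squares the 2 palmitate plus A66 libraries, and for 29 of the 35 genes both squares lie to the left of both circles.

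Without palmitate, A66 called 7 of the 36 interferon-stimulated genes lower and 0 higher, with a median of -0.37, where 93 of all genes (0.638%) were called lower and 116 (0.795%) higher. Ifi44 fell there by 1.63 on the log2 scale, close to its fall with palmitate, from 5.44 and 4.51 CPM in untreated cells to 1.08 and 2.15 CPM. Oasl2 had 4.87 and 3.37 CPM in untreated cells and 2.18 and 2.73 CPM with A66 alone (-0.74, adjusted p = 0.0998). In edgeR's test of the interaction, whether the A66 change itself differs between the fatty acid states, 0 members of the list were called. Oasl2 had an interaction of -1.18 (95% interval -1.84 to -0.52, adjusted p = 0.310) and Ifit1 of -1.09 (95% interval -1.78 to -0.40, adjusted p = 0.407). A call with palmitate and none without it thus does not show that the changes differ. Palmitate against untreated cells, which shares the palmitate libraries, raised Ifit3 (0.68, adjusted p = 0.00209) and Ifit3b (0.77, adjusted p = 0.0230) among the 36, with a list median of 0.14. In that comparison 171 of all genes (1.17%) were called, 92 (0.631%) higher and 79 (0.542%) lower.

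Of 11 PI3-kinase subunit genes tested, 1 was called, where 2.81% of all genes were. Pik3r1 fell, as given above, and it was called under each left-out library. Pik3ca, which encodes the protein that A66 blocks, was at 91.4 and 88.6 CPM with palmitate and 97.3 and 96.4 CPM with A66, a log2 fold change of 0.11 that was not called (adjusted p = 0.230). Pik3r3, a further regulatory subunit, was at 95.4 and 94.5 CPM, then 84.9 and 88.1 CPM (-0.13, adjusted p = 0.100). For neither gene did the groups overlap, as for 44.3% of all genes tested, and neither change was called. The other subunits lay between -0.08 for Pik3r2 and 0.79 for Pik3cd, the latter under 1 CPM in every library. Downstream, 2 of 30 insulin signalling genes were called, 1 higher and 1 lower. Slc2a4, the insulin-regulated glucose transporter GLUT4, fell from 134 and 150 CPM to 118 and 124 CPM (-0.23, adjusted p = 0.00762). Its call ended without palmitate replicate 2 and without palmitate plus A66 replicate 1.

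Of 36 FOXO target genes, 2 rose and 1 fell, where 0.973% of all genes rose and 1.84% fell. The list median was 0.02. Gabarapl1, which acts in autophagosome formation, had 185 and 185 CPM with palmitate and 212 and 214 CPM with A66 (0.20, adjusted p = 0.00837). Gadd45a, a growth arrest gene, had 75.9 and 71.3 CPM, then 85.5 and 88.2 CPM (0.24, adjusted p = 0.00904). Klf15, a metabolic transcription factor, fell from 53.3 and 54.2 CPM to 47.1 and 46.9 CPM (-0.19, adjusted p = 0.0278). The FOXO targets Gabarapl1 and Gadd45a lost their calls without palmitate replicate 2 or palmitate plus A66 replicate 2, and Klf15 lost its call without any 1 of the 4 palmitate-treated libraries.

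Clock genes moved in both directions, 4 of 22 up and 2 down, where 0.973% of all genes rose and 1.84% fell. Nr1d2, which encodes the repressor REV-ERBβ (chromosome 14, 18204054 to 18239127), was at 70.9 and 62.8 CPM with palmitate and 95.7 and 90.8 CPM with A66 (0.48, SE 0.05, adjusted p = 1.97e-05). Dbp, an output transcription factor of the clock, was at 18.7 and 13.3 CPM, then 25.7 and 24.8 CPM (0.66, SE 0.12, adjusted p = 0.00246). Per3 (0.29) and Bhlhe40 (0.18) also rose, to 68.3 and 71.1 CPM and to 94.3 and 93.5 CPM. Arntl and Npas2, of the activating limb, fell. Arntl (BMAL1), the activator whose gene REV-ERB proteins repress, went from 24.0 and 26.7 CPM to 18.8 and 18.7 CPM (-0.43, SE 0.07, adjusted p = 0.00157). Npas2, which pairs with it, went from 0.622 and 1.04 CPM to 0.289 and 0.100 CPM (-2.09, SE 0.50, adjusted p = 0.0219). Nr1d2 and Arntl were called without each library in turn, and Bhlhe40 lost its call without any 1 palmitate-treated library and with scaling by library size alone. Without palmitate replicate 2, 1 of the 4 rises and 1 of the 2 falls were still called, and Dbp was not called by DESeq2. All 6 were also called for A66 without palmitate, in the same directions, with Nr1d2 at 0.35 and Arntl at -0.30. The E-box CACGTG, searched on both strands, was in 7.15% of all windows, in 0 of 6 windows of the called clock genes and in 6 of 20 windows of those not called.

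Antioxidant genes that NRF2 is known to drive moved in both directions, 5 of 35 up and 2 down. Of all genes, 0.973% rose and 1.84% fell. Hmox1 encodes haem oxygenase 1 (chromosome 8, 75093621 to 75100589) and stood at 394 and 393 CPM with palmitate and at 494 and 489 CPM with A66 (0.32, SE 0.04, adjusted p = 0.000143). The gap between the groups was many times the gap between replicates. Gclm, a subunit of the enzyme that limits glutathione synthesis, rose from 132 and 124 CPM to 144 and 154 CPM (0.22, adjusted p = 0.00774). Slc7a11, the cystine importer that feeds it, rose from 20.9 and 15.8 CPM to 26.4 and 23.7 CPM (0.44, adjusted p = 0.0109), and the export pump gene Abcc1 rose by 0.16 (adjusted p = 0.0325). The metallothioneins Mt1 and Mt2, which bind zinc and copper, fell by 0.29 and 0.34. Nqo1, a textbook target of NRF2, was at 31.3 and 28.9 CPM, then 31.3 and 27.7 CPM, and was not called. Without palmitate replicate 2, 1 of the list was called higher and 1 lower, without palmitate replicate 1 there were 8 higher and 2 lower, and with scaling by library size alone, where Abcc1 was not called, 3 higher and 3 lower.

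**Figure D3:**
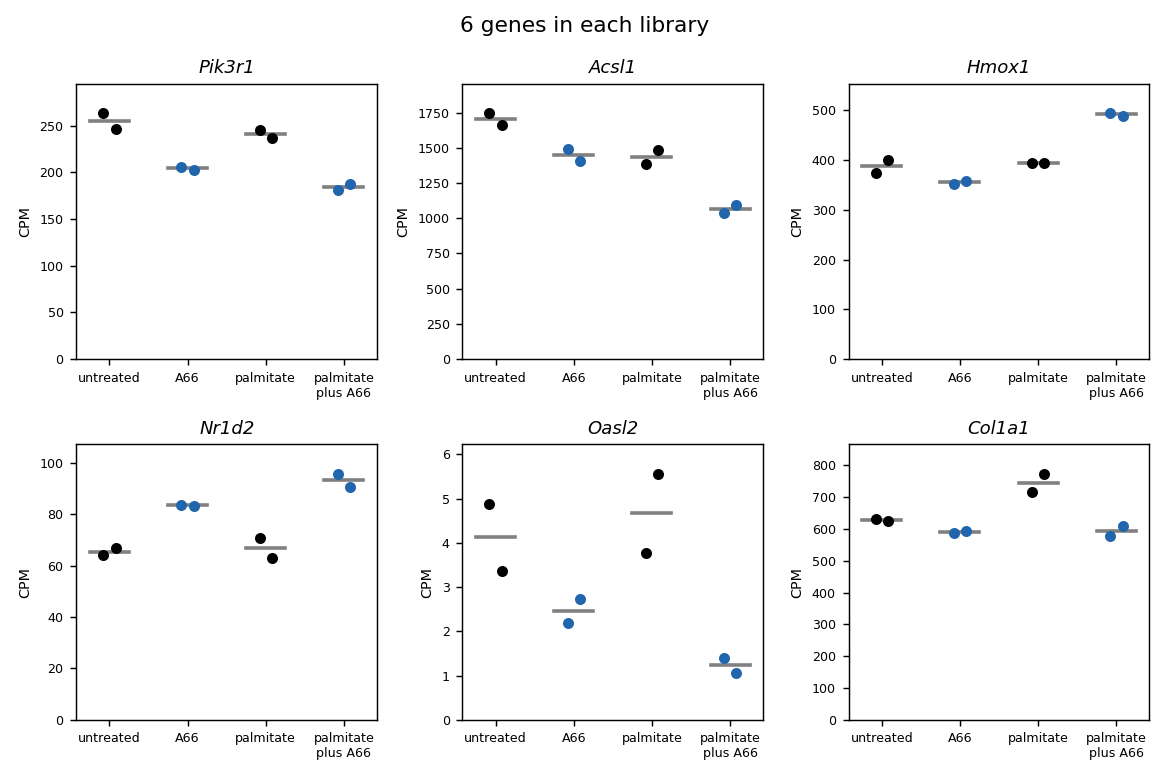
CPM (vertical axes, each from 0) of Pik3r1, Acsl1, Hmox1, Nr1d2, Oasl2 and Col1a1 in each of the 8 libraries, with 1 point per library and a grey bar at the mean of the 2. Blue points received A66. Hmox1 is highest in palmitate plus A66, whereas Pik3r1 and Acsl1 are lowest there.

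Among genes of fatty acid handling, 4 of 28 on the fatty acid synthesis list fell and 1 rose. Of all genes, 1.84% fell and 0.973% rose. The list reaches beyond synthesis, with the acyl-CoA synthetases Acsl1 and Acsl4 on it. Acsl1 is described above. Elovl6, which elongates palmitate, fell from 48.6 and 44.3 CPM to 39.4 and 37.4 CPM (-0.27, adjusted p = 0.00654), a call that ended without palmitate replicate 1 or palmitate plus A66 replicate 2. Thrsp (-0.26) and Pnpla3 (-0.43) also fell but were not called by DESeq2. Acsl4, the synthetase that prefers polyunsaturated fatty acids, rose from 192 and 169 CPM to 207 and 210 CPM (0.21, adjusted p = 0.0159). Without palmitate replicate 2, 2 of the list were called lower and Acsl4 was not called. In lipolysis, 2 of 20 genes fell, Abhd5, the activator of adipose triglyceride lipase (171 and 174 CPM, then 146 and 145 CPM, -0.25), and G0s2, its inhibitor (150 and 172 CPM, then 130 and 140 CPM, -0.25). More of the 20 were called lower without palmitate replicate 1. Cidec, a lipid droplet protein, was the 1 gene called of 25 for triglyceride synthesis and storage (-0.23, adjusted p = 0.0373), and it was not called by DESeq2. The list had 4 falls with scaling by library size alone and 6 without palmitate replicate 1. Of 38 fatty acid oxidation genes, Hadh (-0.19) and Crat (-0.20) fell, and both lost their calls without either palmitate plus A66 library. Of 23 phospholipid synthesis genes, Lpcat3 fell (-0.19), and of 25 sphingolipid genes, Sgpl1 (0.17) and Ugcg (0.21) rose. Ugcg was not called by DESeq2, with scaling by library size alone or in the fit of the palmitate libraries alone. Cidec, G0s2, Lpcat3, Sgpl1 and Ugcg were not called without palmitate replicate 2 or without palmitate plus A66 replicate 1, whereas Abhd5 was. In the triglyceride, phospholipid and fatty acid oxidation lists 4%, 4.35% and 5.26% of members were called, where 2.81% of all genes were.

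Of 31 cholesterol synthesis and uptake genes, 4 fell and 0 rose, with a median of -0.05, where 1.84% of all genes fell and 0.973% rose. Dhcr7, which acts at the last step, went from 76.3 and 76.6 CPM to 66.9 and 64.3 CPM (-0.22, adjusted p = 0.00736). Mvk (-0.25) and Hmgcs1 (-0.14) also fell. Without palmitate replicate 2, or without either palmitate plus A66 library, 1 was called. Palmitate over untreated cells, a comparison that shares the palmitate libraries, raised 21 of the same 31 genes (0.631% of all genes) with a median of 0.34. A66 without palmitate lowered 11 (0.638% of all genes) with a median of -0.15. Dhcr7 stood at 57.2 and 55.5 CPM in untreated cells and 49.1 and 48.0 CPM with A66 alone, so that it was higher in both groups with palmitate.

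Of 79 nuclear genes of oxidative phosphorylation tested, 14 fell and 0 rose, 73 had a value below 0, and the median was -0.11. Of all genes tested, 1.84% fell and 0.973% rose, and the median was -0.000794. Atp5g1, an ATP synthase subunit, went from 77.3 and 78.1 CPM to 67.4 and 61.3 CPM (-0.27, SE 0.05, adjusted p = 0.00299). The complex I subunit gene Ndufv2 went from 128 and 128 CPM to 112 and 106 CPM (-0.24, SE 0.04, adjusted p = 0.00325), and Ndufb7 from 57.3 and 64.3 CPM to 50.3 and 49.4 CPM (-0.29, SE 0.05). Uqcr11 of complex III fell by 0.25. The count was sensitive to single libraries, at 4 without palmitate replicate 2, 7 without palmitate replicate 1, 5 without palmitate plus A66 replicate 1 and 2 without palmitate plus A66 replicate 2. Without palmitate, A66 called 4 of the 79 higher and 0 lower, against 0.795% and 0.638% of all genes. The median there was 0.03, and the interaction was called for none of the 79. Of the 13 genes encoded by mitochondrial DNA, 0 were called with palmitate and their median was 0.04. In the TCA cycle 3 of 19 fell, Fh1 (-0.20), Ogdh (-0.15) and Sdhc (-0.17), and of the genes for mitochondrial biogenesis and uncoupling Cox8b fell (-0.46, adjusted p = 0.0153). Fh1, Ogdh, Sdhc and Cox8b lost their calls without palmitate replicate 2, and DESeq2 called 6 TCA cycle genes lower.

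In lists of glycolysis and amino acid breakdown, 12.9% and 13.6% of tested genes fell, where 1.84% of all genes fell and 0.973% rose. Of 31 genes for glycolysis and glucose uptake, 4 fell and 0 rose, with a median of -0.11. Beside Slc2a4 these were Pgam1 (273 and 273 CPM, then 240 and 237 CPM, -0.20), Pdhb (-0.17) and Aldoa (-0.15), and without palmitate replicate 2 none of the 4 was called. The list had 7 falls with scaling by library size alone and 8 with DESeq2. Of 22 genes for breakdown of branched-chain amino acids, Bcat2, the mitochondrial transaminase of the first step, fell from 271 and 278 CPM to 231 and 228 CPM (-0.26, SE 0.04, adjusted p = 0.000568), and Mccc1 and Mccc2, the subunits of 1 carboxylase for leucine, fell by 0.19 and 0.26. The Bcat2 call held without each library in turn, and those of Mccc1 and Mccc2 ended without palmitate replicate 2 or palmitate plus A66 replicate 1.

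Among 29 adipocyte identity genes, 5 fell and 0 rose, with a median of -0.13, where 1.84% of all genes fell and 0.973% rose. Retn, which encodes the adipokine resistin, was at 315 and 328 CPM with palmitate and at 265 and 249 CPM with A66 (-0.32, SE 0.05, adjusted p = 0.000511). Car3, an abundant carbonic anhydrase of adipocytes, was at 50.2 and 54.7 CPM, then 35.7 and 41.5 CPM (-0.44, SE 0.08, adjusted p = 0.00316), and was not called by DESeq2. Slc2a4, Klf15 and Cidec were the other members. Pparg, the master regulator of adipocyte differentiation, was at 293 and 305 CPM, then 300 and 311 CPM, and was not called (0.03). Of the identity genes 1 was called without palmitate replicate 2 or without palmitate plus A66 replicate 1, 11 without palmitate replicate 1 and 8 with scaling by library size alone. Markers of preadipocytes and stromal cells were divided, with Acta2 (0.35) and Tagln (0.35), smooth muscle contractile genes, higher, and Postn (-0.36) and Lum (-0.26), matrix genes, lower. Postn went from 375 and 360 CPM to 269 and 305 CPM, and of these 4 markers it was the only one called without palmitate replicate 2 or without palmitate plus A66 replicate 1. Acta2 was not called by DESeq2, nor Tagln with scaling by library size alone.

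Of 45 collagen and matrix genes, 8 fell and 1, Mmp11, rose, with a median of -0.10, where 1.84% of all genes fell and 0.973% rose. Col1a1, the fibrillar collagen α1(I), was at 717 and 773 CPM with palmitate and at 576 and 610 CPM with A66 (-0.33, SE 0.04, adjusted p = 0.000175). Col6a2 was at 971 and 1078 CPM, then 814 and 844 CPM (-0.31, SE 0.05, adjusted p = 0.000514). Col18a1 fell by 0.24 and the basement membrane gene Nid2 by 0.40. The groups did not overlap for any of these, as for all 410 called genes and 44.3% of all genes tested. Col1a1 stood at 631 and 626 CPM in untreated cells and at 586 and 595 CPM with A66 alone, so it was highest with palmitate alone. The number that fell was 3 without palmitate replicate 2.

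**Figure D4:**
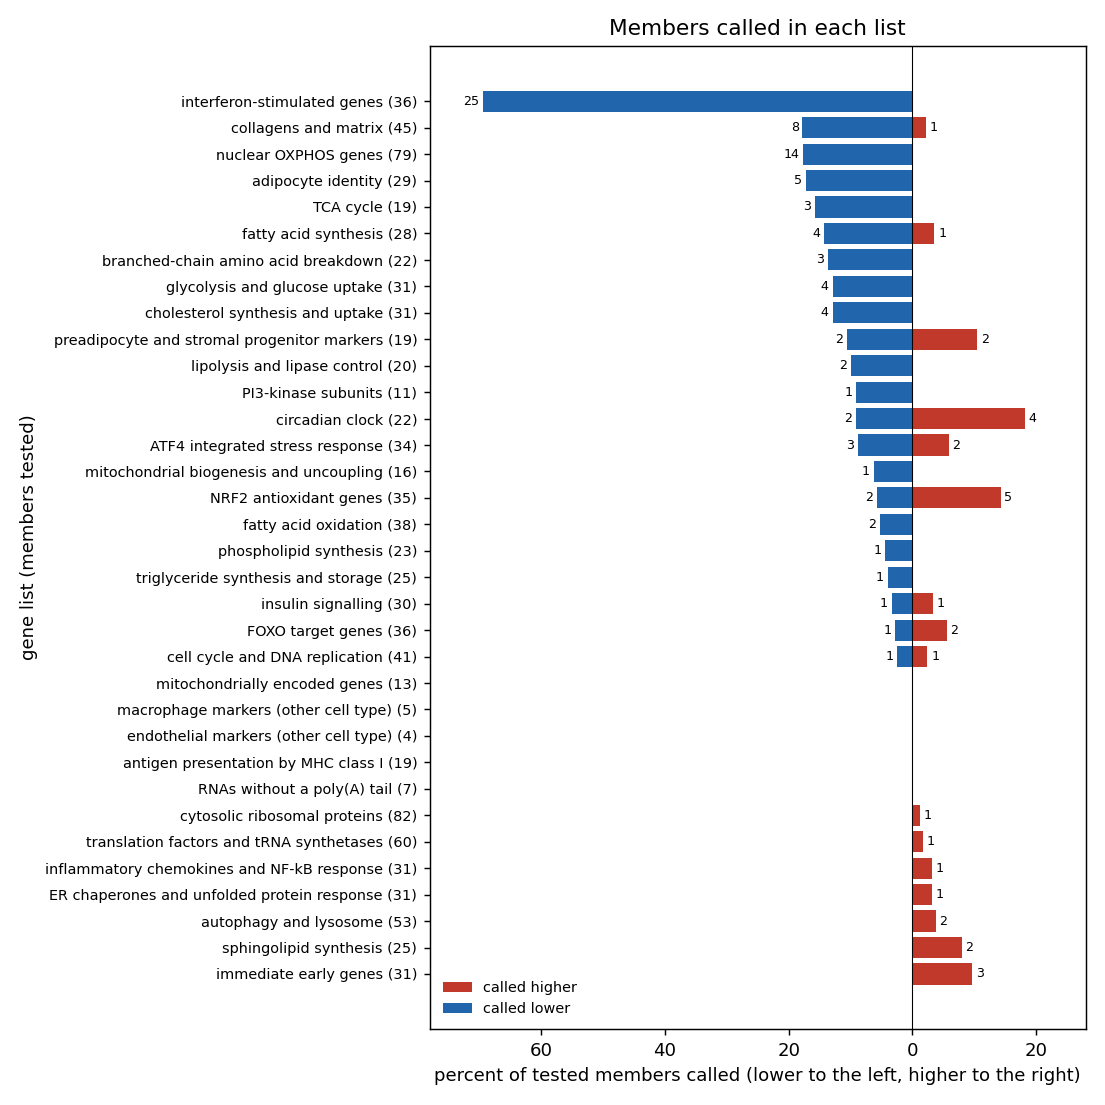
Percent of the tested members of each gene list that were called lower (blue, to the left) or higher (red, to the right) with A66 in palmitate-treated adipocytes, with the number called beside each bar and the number tested in brackets. Interferon-stimulated genes reach 69.4% lower, and of all genes 1.84% were called lower and 0.973% higher.

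Immediate early genes rose in 3 of 31 cases and fell in 0, where 0.973% of all genes rose and 1.84% fell. Ier3 went from 5.19 and 5.15 CPM to 8.16 and 7.31 CPM (0.58, SE 0.13, adjusted p = 0.0124), Dusp4, a phosphatase for MAP kinases, from 25 and 20.7 CPM to 31.3 and 27.6 CPM (0.37), and Atf3 from 25.9 and 20.6 CPM to 31.4 and 29.3 CPM (0.38). None of the 3 was called without palmitate replicate 2. Of 34 genes of the ATF4 stress response, Atf3 and Slc7a11 rose and Ddit4 (-0.44), Nupr1 (-0.17) and Slc7a5 (-0.18) fell. Of this list 0 were called higher and 1 lower without palmitate replicate 2, and 0 higher and 2 lower without palmitate plus A66 replicate 1. Of 31 endoplasmic reticulum chaperone and unfolded protein response genes Herpud1 rose (0.16), and of 53 autophagy and lysosome genes Gabarapl1 and Sqstm1 (0.15) rose, Sqstm1 without a call in either the fit of the palmitate libraries alone or with scaling by library size. Of 31 inflammatory genes of the NF-kB response Tlr4, the receptor for lipopolysaccharide, rose from 79.2 and 79.0 CPM to 92.8 and 93.1 CPM (0.23, SE 0.04, adjusted p = 0.00257). More of these 31 were called higher without palmitate plus A66 replicate 2. The endoplasmic reticulum, autophagy and NF-kB lists had 3.23%, 3.77% and 3.23% of members called, near the 2.81% of all genes. Of 19 genes for antigen presentation by MHC class I, 0 were called, the smallest p being that of Tapbp (-0.12, adjusted p = 0.139).

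In growth-related lists, 1.22% of ribosomal protein, 1.67% of translation and 4.88% of cell cycle genes were called, where 2.81% of all genes were. Of 82 cytosolic ribosomal protein genes, Rps21 rose (0.28, adjusted p = 0.0203), for which reads can be shared with processed pseudogenes, and which was not called by DESeq2 or without palmitate replicate 1, palmitate replicate 2 or palmitate plus A66 replicate 2. The list had a median of 0.02 with palmitate, and of 0.16 without it, where A66 called 34 of the 82 higher, against 0.795% of all genes. For A66 in these cells the paper reports the opposite, an association of ribosomal proteins with the lowered genes, and the reason was not tested. The interaction was not called for any of the 82 genes. Of 60 translation factor and tRNA synthetase genes Eif4a2 rose (0.15, adjusted p = 0.0451), and of 41 cell cycle genes Mcm7 rose (0.20) and the inhibitor Cdkn2c fell (-0.27), the latter without a call when palmitate replicate 2 or palmitate plus A66 replicate 1 was left out. Eif4a2, Mcm7 and Herpud1 were called neither with scaling by library size alone nor without any 1 of the 4 palmitate-treated libraries.

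The A66 change with palmitate was set beside the A66 change without palmitate, a comparison that shares no library with it. In cells without palmitate 209 of 14587 genes (1.43%) were called. Genes called in both numbered 82, which is 20% of the 410 called with palmitate and 39.2% of the 209 called without it, and all 82 moved the same way, 34 higher and 48 lower. The sign without palmitate was the same for 362 of the 410 (88.3%), where 58.4% of all genes tested had the same sign. Across 8956 genes with a mean of at least 10 CPM, Pearson's r of the log2 fold changes was 0.36, a description over genes, which are not independent replicates. Tmem140, Mmp11, Nr1d2, Acsl1, Pik3r1 and Olfml2b, 6 of the 10 genes made up of the 5 smallest p-values in each direction, were called in both. Acsl1 changed by -0.24 without palmitate and Pik3r1 by -0.32. The overlap rested on single libraries too, at 27 without A66 replicate 1, 30 without A66 replicate 2, 34 without untreated replicate 1, and 51 without palmitate plus A66 replicate 2.

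The test of the interaction, whether the A66 change itself differed between cells with and without palmitate, called 1 gene of 14587 (0.00686%), and 1155 genes had an unadjusted p under 0.05. The gene was Hmox1. It was at 374 and 401 CPM in untreated cells and at 352 and 358 CPM with A66 alone (log2 fold change -0.13, not called), against the rise with palmitate given above, a difference of 0.45 (95% interval 0.33 to 0.57, adjusted p = 0.00194). The only group in which both libraries stood above all others was palmitate plus A66. Without A66 replicate 1 its adjusted p was 0.0675, and without each other library in turn it stayed called, with differences between 0.40 and 0.50. DESeq2, with its own normalization and filter, called 22 genes for the interaction, and edgeR with no low-count filter called 91.

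**Figure D5:**
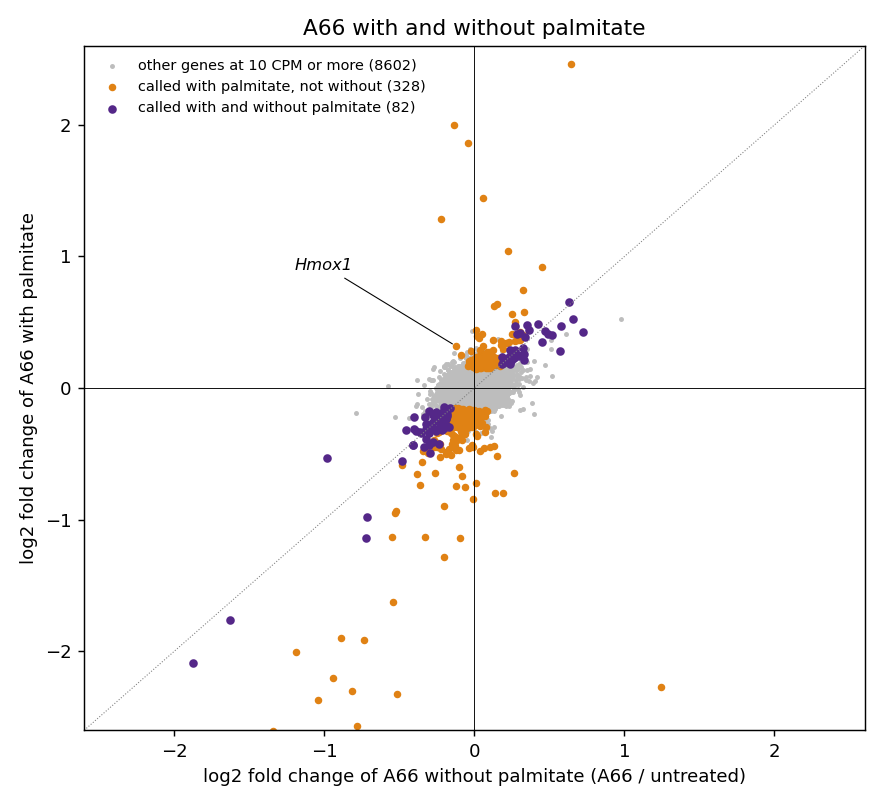
Log2 fold change of A66 with palmitate (vertical axis) against that without palmitate (horizontal axis). Purple points are the 82 genes called in both, orange the 328 called with palmitate and not without, and grey the 8602 other genes with a mean of at least 10 CPM in the palmitate-treated libraries; 2 called genes lie outside the axes, and all purple points lie in the lower left or upper right quadrant.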

How the data were processed

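Polyadenylated RNA of 3T3-L1 adipocytes gave 8 libraries, and groups were taken from the treatment in the sample labels. The authors aligned reads with TopHat2 2.0.11 to GRCm38 and counted them with HTSeq, and the counts they deposited are raw, with 1 row for each Ensembl gene. The annotation and strand setting of the counting are not given in the sources used here. The same file holds the authors' DESeq2 output (mean, log2 fold change with its error, test statistic and p-values), which was not used.

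Symbols and coordinates came from GENCODE M21 on GRCm38 by Ensembl ID, and 42548 of 43629 genes had a symbol. Differences were tested in R 4.3.3 with edgeR 4.0.16 (TMM, filterByExpr with a minimum count of 10, a quasi-likelihood fit to all 8 libraries with group means, two-sided, Benjamini-Hochberg over the 14587 genes tested). Log2 fold changes are palmitate plus A66 over palmitate. SE is the size of the change over the square root of F. CPM values are scaled by TMM. Replicates differed beyond counting noise, with a chi-square averaging 8.99 a gene (palmitate) and 7.80 (palmitate plus A66) against 1 for noise. The fit was tested on simulated data.

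Named genes were the 10 largest rises and 10 largest falls among called genes averaging 1 CPM or more, the 5 smallest p-values in each direction, up to 4 called members in each direction per list (the member with the smallest p where none was called), every PI3-kinase subunit and genes called for the interaction. Most interferon-stimulated genes are given, and other genes outside this rule serve as reference values. Results for a few genes are not reported here, though list counts include them. The comparison, the rule and the gene lists were chosen with earlier results of these data known. Alternatives were RLE normalization, library size alone, DESeq2 1.42.0, other count filters, the 4 palmitate-treated libraries alone, a replicate block, a transcript length correction (loess, span 0.4), a 1.5-fold minimum and leaving out each library.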

Additional observations from a re-analysis of the deposited data

Results flagged for a closer look

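The change of Hmox1 with A66 differed between cells with and without palmitate in the test of the interaction, by 0.45 on the log2 scale (edgeR, adjusted p = 0.00194). Over the alternatives other than the 1.5-fold minimum the adjusted p ranged from 4.17e-12 with DESeq2 to 0.0675 without A66 replicate 1. Groups of 2 libraries are too small for a test of single libraries that stand apart.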

How the results depend on the processing

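The 410 calls with palmitate (142 higher, 268 lower) numbered between 376 and 457 under RLE normalization, library size alone, DESeq2, at least 10 counts in every palmitate-treated library, those 4 libraries alone, the length correction and the replicate block, and 652 (244 and 408) with no low-count filter. With the replicate block there were 448, and 480 when the length correction was added. Same-numbered palmitate and palmitate plus A66 libraries deviated together with a correlation of 0.153 over 8956 genes (-0.147 to 0.153 over all pairs of groups), and the labels give a number and no pairing. With a 1.5-fold minimum 5 genes were called (0 higher, 5 lower), 4 of them on the interferon-stimulated list, and 0 without palmitate, for palmitate, for the interaction and in both A66 comparisons. Leaving out each library in turn (for the libraries without palmitate, chosen after seeing the data) gave 147 to 494 calls with palmitate (58 to 185 higher, 89 to 309 lower), 15 to 25 falls among the interferon-stimulated genes, 42 to 268 calls for A66 without palmitate, 71 to 245 for palmitate, 27 to 83 in both A66 comparisons and 0 to 10 for the interaction. The interaction gave 22 calls with DESeq2, 91 with no filter, 3 with the replicate block and 2 with library size alone, the length correction or both corrections. With no filter, A66 without palmitate gave 403 calls, palmitate 396 and both A66 comparisons 152 in the same direction. Of the 96 named genes that were called, 31 stayed called without each palmitate-treated library in turn. Pik3c2b, not called, changed sign, between -0.19 and 0.24 over the leave-outs. The causes were not tested. Depth limits genes under about 1 CPM, which hold 11 of the 410 calls.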
